A study of Mus musculus with 44 samples.

Results

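Gli1, Gli2, Gli3, Ptch1, Smo, Sufu, Hhip and Ihh, 8 genes of the Hedgehog pathway, were taken by symbol from the 46831 genes that have a single entry in the count table. The counts come from SLIM-seq, an m6A profiling method for few cells. An antibody enriches methylated RNA (IP), and the RNA before enrichment (input) is sequenced beside it. There are 44 libraries of cells sorted from long bones of C57Bl6 mice on day 3 after birth. Of these, 32 are WT, with IP and input each in 2 replicates for 8 populations. They are SSC (skeletal stem cells), pBCSP and BCSP (bone, cartilage and stromal progenitors and the cells before them), PCP (pro-chondrogenic progenitors), THY and 6C3 (subpopulations named by surface marker), BLSP (B-cell lymphocyte stromal progenitors) and HEC (cells named for hepatic leukemia factor). The other 12, titled Mettl3cko, hold IP and input in 2 replicates for BCSP, pBCSP and SSC. The study calls the Mettl3 fl/fl controls of its knockout cross WT, and whether all WT libraries came from such mice is not given in the sources used here. The knockout mice were Mettl3 fl/fl;Col2a1-Cre, in which the Col2a1 promoter drives Cre in skeletal stem and progenitor cells and in cartilage. All 44 libraries have wild type in the labels' genotype field, so a knockout label here rests on the titles and the names of the count columns. The labels do not say which animals a replicate came from, and the p-values measure only the spread between these libraries.

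In the Hedgehog pathway a secreted ligand, Indian hedgehog (Ihh) in growing cartilage, binds the receptor Ptch1 and relieves its inhibition of Smo. Smo then lets the transcription factors Gli2 and Gli3 act as activators instead of being cut into repressors. Sufu holds the Gli proteins back, and Hhip is a membrane protein that captures ligand. Gli1, Ptch1 and Hhip are themselves transcribed in response, and their mRNA is often read as a sign of signalling. In the growth plate Ihh is made by chondrocytes about to become hypertrophic, and with the secreted factor Pthlh and its receptor Pth1r it forms a feedback loop that sets where cartilage matures.

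The counts are per gene and do not hold the position of m6A. The letters GGACT, a common form of the sequence at which Mettl3 methylates adenosine, were therefore searched on the sense strand of the longest coding transcript of each gene (GENCODE vM21, GRCm38). Ptch1 held 17 copies, Gli3 13, Gli2 11, Sufu 9, Smo 8, Gli1 and Ihh 5 each and Hhip 2. The median over 21877 coding genes was 3, and 87.6% of them held at least 1 copy. Per kilobase the copies ran from 0.220 in Hhip to 2.201 in Ptch1, against a median of 1.01 over all coding genes. The copy in the coding sequence nearest the stop codon is shown for the 7 genes that have one there, because m6A is known to gather near stop codons. It lies 2 bases before the end of the last sense codon in Smo and 68 to 254 in Ptch1, Sufu, Gli1 and Gli2. In Gli3 and Ihh it lies 639 and 739 bases away, and copies after the stop codon are not shown. The capitals mark GGACT in a window of 21 bases.
Gli1: actcagctGGACTttgtggct
Gli2: agcaccgtGGACTcccagctc
Gli3: cctaccagGGACTcaggacaa
Ptch1: gagaggagGGACTcaaaggtg
Smo: gcagactcGGACTtctgagcc
Sufu: atgttggaGGACTtagaagat
Ihh: ataagtatGGACTgctggcgc
The GGACT of Ptch1 lies at chr13:63511604-63511608 (minus strand), that of Gli3 at chr13:15726135-15726139 (plus strand), that of Ihh at chr1:74948387-74948391 (minus strand) and that of Smo at chr6:29760276-29760280 (plus strand). In Gli1 it is at chr10:127330223-127330227 (minus strand), in Gli2 at chr1:118836042-118836046 (minus strand) and in Sufu at chr19:46483638-46483642 (plus strand). Both copies of Hhip stand after its stop codon. A match is a run of letters and not a measured site.

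All 8 genes are annotated as protein coding, with Ihh at chr1:74945315-74951672, Ptch1 at chr13:63508328-63573598, Smo at chr6:29735503-29761365, Hhip at chr8:79965851-80058006 and Sufu at chr19:46396896-46488804. Gli1 lies at chr10:127329882-127341974, Gli2 at chr1:118834132-119053619 and Gli3 at chr13:15463235-15730026 of GRCm38. Gli1 overlaps Arhgap9 and the antisense gene Gm47200 on the opposite strand, and since no source states that reads were counted by strand, reads of overlapping exons cannot be assigned to a strand. WT input libraries held 19795666 to 44046651 counts and WT IP libraries 16480027 to 35856651. The IP libraries labelled Mettl3cko stood apart, with 12685 to 14415 genes detected where WT IP libraries of SSC, pBCSP and BCSP had 16250 to 18714. Over all 8 WT populations the IP libraries had 16250 to 27025. The Mettl3cko IP totals of 22056571 to 33126857 counts lay within the WT range. Input libraries labelled Mettl3cko, with 30050178 to 35325482 counts, held 17283 to 19884 genes. WT input libraries held 19385 to 20747 in the same 3 populations and 19385 to 26442 in all 8. The targeted gene, Mettl3, stood above WT in SSC and pBCSP labelled Mettl3cko and below it in BCSP. In counts-per-million (CPM), its input mRNA was at 16.8 and 18.8 in SSC against 15.5 and 15.6 in WT, at 22.4 and 23.2 in pBCSP against 12.2 and 16.3, and at 16.5 and 18.0 in BCSP against 18.3 and 19.9. The log2 change was 0.25 (SE 0.17) over the 3 populations (adjusted p = 0.449, edgeR). A count over the whole gene does not show whether the floxed exons are missing, so it does not check the labels. Of the sorting markers, Thy1 was at 22.9 and 34.3 CPM in THY and at most 0.90 in SSC, pBCSP, BCSP, 6C3 and HEC. Enpep, which encodes 6C3, was at 40.3 and 44.2 in 6C3, 52.1 and 55.4 in HEC and at most 8.60 elsewhere. Hlf, the gene HEC is named for, was at 3.25 and 5.27 CPM in HEC and 4.07 and 6.61 in BLSP. Ptprc, the leukocyte marker CD45, had 0 counts in SSC and BCSP of both labels.

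Which Hedgehog genes differ in mRNA among the 8 WT populations was asked first. Ihh, Ptch1 and Gli2 were high in SSC, pBCSP and BCSP and low in the other 5 populations. Hhip was highest in HEC and 6C3, the highest and lowest means of Gli1 were 2.16-fold apart, and those of Gli3 only 1.41-fold. By edgeR's quasi-likelihood test over all 8 populations, 5 of the 8 genes differed at an adjusted p under 0.05 (Ihh, Ptch1, Hhip, Gli1 and Gli2), against 40.1% of the 20060 genes tested. In the contrast of SSC, pBCSP and BCSP with the 5 downstream populations 6 of the 8 were higher, against 23.1% of all genes, and 0 were lower, against 28.3%. The median log2 difference was 0.40 over the 8 genes and -0.11 over all genes tested. In sorted bulk cells, more cells that express a gene and more mRNA per cell cannot be told apart.

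**Figure D1:**
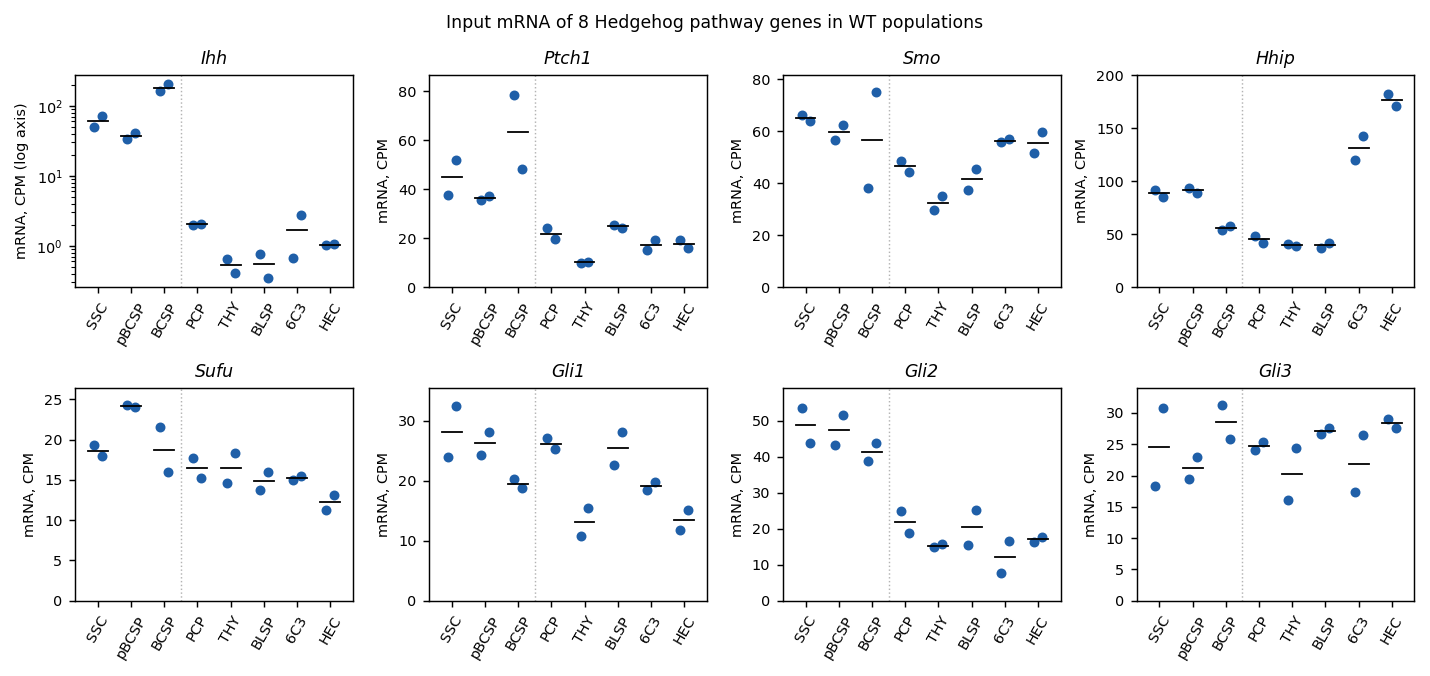
Input mRNA of the 8 genes in the WT populations, in CPM (y axis, logarithmic for Ihh and from 0 for the others), with a point per replicate and a line at the mean; the dotted line separates SSC, pBCSP and BCSP from the 5 downstream populations. Ihh falls from 33.4 CPM or more on the left to 2.71 or less on the right, Ptch1 and Gli2 also separate at the line, and Gli3 does not.

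Ihh, the ligand, had the widest range of the 8. It was at 159.9 and 203 CPM in the 2 BCSP libraries, 49.8 and 71.6 in SSC and 33.4 and 40.9 in pBCSP. Downstream it was at 1.98 and 2.08 in PCP, 0.671 and 2.71 in 6C3, 1.02 and 1.04 in HEC, 0.758 and 0.349 in BLSP and 0.654 and 0.403 in THY. The 6 stem and progenitor libraries all stood above the 10 downstream ones, and THY and BLSP held the lowest levels. The log2 difference between the 2 sets was 6.20 (SE 0.24, adjusted p = 3.08e-11, edgeR). In the order of levels the step from pBCSP down to PCP, 4.15 on the log2 scale (SE 0.46), passed the test between neighbours. The steps from BCSP to SSC and from SSC to pBCSP did not (adjusted p = 0.108 and 0.648, edgeR).

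Genes of the hypertrophic zone moved partly with Ihh. Col10a1, the collagen of hypertrophic cartilage, was at 723 and 1026 CPM in BCSP and 147 and 169 in SSC. It was at 0.497 and 2.75 in pBCSP, which had Ihh above 33 CPM, and at 9.67 and 12.8 in PCP. The 6 hypertrophic markers were Col10a1, Panx3, Mmp13, Mef2c, Ibsp and Spp1. Their summed CPM in the 2 libraries was 682 and 1042 in pBCSP, 3806 and 5804 in SSC, 4820.2 and 10118 in BCSP, 4046 and 13541 in PCP and 375 to 2221 in the other 4 populations. The 2 PCP sums lay far apart, below and above both sums of BCSP, with far less Ihh in PCP. Col10a1 in PCP stayed far below that of BCSP. The 11 cartilage markers summed to 97011 to 115279 CPM in SSC, pBCSP and BCSP, 44799 to 102788 in 6C3 and HEC and 8933 to 22142 in PCP, THY and BLSP. The 7 osteoblast markers summed to 4323 to 11260.0 in the 6 stem and progenitor libraries and 66277 to 143309 in the 10 downstream ones. The osteoblast sum thus divided the libraries as Ihh, Ptch1 and Gli2 did, and its part in those differences was not tested. The cartilage sum did not, since HEC reached the range of the stem and progenitor libraries.

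Ptch1, the receptor, followed the same division at a smaller scale. Its CPM was 78.5 and 48.4 in BCSP, 37.8 and 51.9 in SSC and 35.7 and 37.3 in pBCSP. Downstream it was 25.6 and 24.1 in BLSP, 24.4 and 19.6 in PCP, 19.5 and 16.1 in HEC, 15.3 and 19.3 in 6C3 and 10.1 and 10.4 in THY. The 2 BCSP libraries lay far apart, and the lowest stem or progenitor library, 35.7, still exceeded the highest downstream one, 25.6. The log2 difference was 1.38 (SE 0.13, adjusted p = 2.72e-07, edgeR). Populations next to each other in this order did not differ at an adjusted p under 0.05 in edgeR.

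Smo, which carries the signal from Ptch1 into the cell, ranged from 32.6 ± 3.82 CPM (SD, n = 2) in THY to 65.1 ± 1.68 in SSC. Its libraries were at 66.3 and 63.9 in SSC and 56.7 and 62.6 in pBCSP, at 38.2 and 75.0 in BCSP, where the replicates disagreed most. The 10 downstream libraries, at 29.9 to 59.6, overlapped them. The omnibus test did not pass (adjusted p = 0.0827, edgeR), and the contrast did, at 0.38 (SE 0.13, adjusted p = 0.0242). Without replicate 2 of BCSP the contrast fell to 0.18 with an adjusted p of 0.203 in edgeR, and with library size alone as the scaling its adjusted p was 0.0757.

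Hhip, which captures ligand at the membrane, had an order of its own. It was at 182 and 172 CPM in HEC and 119.9 and 143 in 6C3, at 94.2 and 89.1 in pBCSP and 91.9 and 85.2 in SSC. It was at 53.9 and 57.9 in BCSP, and PCP, THY and BLSP lay between 37.3 and 48.9. The highest and the lowest levels were therefore both in downstream populations, and the contrast of stem and progenitor against downstream was 0.11 (SE 0.09, adjusted p = 0.341, edgeR). Over all 8 populations the difference passed (adjusted p = 3.14e-07), as did the step from 6C3 to pBCSP, 0.56 (SE 0.18, adjusted p = 0.0356). HEC and 6C3 were also the populations with Enpep, and Col2a1, the main collagen of cartilage, was at 64004 and 82637 CPM in HEC and 33528 and 71155 in 6C3.

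Sufu, the inhibitor that binds Gli proteins, was highest in pBCSP at 24.3 and 24.1 CPM and lowest in HEC at 11.2 and 13.2, with the other populations between 13.8 and 21.6. The omnibus test did not pass (adjusted p = 0.0915, edgeR). The contrast of stem and progenitor against downstream did, at 0.42 (SE 0.12, adjusted p = 0.00887), with the 6 libraries at 15.997 to 24.3 and the 10 at 11.2 to 18.3.

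The 3 transcription factors differed from each other. Gli2, the main activator, was at 53.4 and 43.9 CPM in SSC, at 43.2 and 51.7 in pBCSP, at 38.8 and 43.7 in BCSP and at 7.66 to 25.1 in the 10 downstream libraries. The 2 sets did not overlap, as for Ihh and Ptch1, and all 6 libraries stood above all 10 in 8.19% of the genes. The log2 difference was 1.40 (SE 0.16, adjusted p = 2.37e-06, edgeR), and the step from BCSP to PCP, 0.90 (SE 0.32), passed between neighbours (adjusted p = 0.0432). Gli1, both activator and target, was at 23.952 and 32.4 CPM in SSC, 24.3 and 28.2 in pBCSP, 27.1 and 25.2 in PCP and 22.7 and 28.1 in BLSP. It was at 20.3 and 18.7 in BCSP and 18.4 and 19.8 in 6C3, and at 11.7 and 15.1 in HEC and 10.7 and 15.4 in THY. It was thus not highest where Ihh and Ptch1 were, since BCSP held 19.5 ± 1.16 and BLSP 25.4 ± 3.81 (SD, n = 2). That difference did not pass (adjusted p = 0.271, edgeR). The contrast of stem and progenitor against downstream was 0.36 (SE 0.13, adjusted p = 0.0278) for Gli1, and without replicate 2 of SSC it was 0.27 with an adjusted p of 0.132. With library size alone its adjusted p was 0.0859. Gli3, the main repressor, spanned 18.3 to 31.3 CPM in stem and progenitor libraries and 16.032 to 29.1 downstream. Its contrast was -0.01 (SE 0.15, adjusted p = 1, edgeR), and it also missed the omnibus test (adjusted p = 0.628).

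Per kilobase of exon, which allows genes to be set beside each other, Ihh reached 59.5 CPM per kb in BCSP, above the highest values of Hhip (19.5 in HEC) and Smo (11.6 in SSC). The highest population means of Gli2, Gli1, Ptch1, Sufu and Gli3 were 7.08, 5.64, 4.47, 3.14 and 2.98 CPM per kb. In THY, Ihh was at 0.173 CPM per kb, the lowest mean of any of the 8 genes in any population.

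The other 51 Hedgehog genes of the list did not share the direction of Ihh, Ptch1 and Gli2 as a group. Of the 49 that were tested, 31 differed among the 8 populations at an adjusted p under 0.05 in edgeR, where the share of all genes was 40.1%. In SSC, pBCSP and BCSP 16 were higher and 14 lower, against 23.1% and 28.3% of all genes, and their median log2 difference was -0.06. Among genes for ligands and their release, Scube3 and Scube1, secreted proteins of the Scube family, were higher at 1.60 (SE 0.16) and 1.28 (SE 0.14), while Scube2 was lower at -1.31 (SE 0.20). Shh and Disp2 were not tested, with Shh at no more than 0.305 CPM in any library, and Dhh was at 18.4 and 21.9 CPM in BLSP. Of the receptors and co-receptors 3 were higher and 2 lower, led by the glypican Gpc6 at 1.33 (SE 0.13). Of the 12 genes for the cilium and transduction 2 were higher and 3 lower. Among kinases and ubiquitin ligases Prkaca and Prkacb, the catalytic subunits of protein kinase A, which phosphorylates Gli proteins, were lower at -2.11 (SE 0.21) and -1.13 (SE 0.14). Spopl was lower at -1.53 (SE 0.22), and Btrc, which recognizes phosphorylated Gli proteins, was higher at 0.97 (SE 0.10). Fem1b, the substrate receptor of a Cul2 ubiquitin ligase, was at -0.29 (SE 0.13, adjusted p = 0.0694). Of 10 genes listed as targets 4 were higher, among them Pth1r at 1.499 (SE 0.11), Bcl2 at 1.09 (SE 0.14) and Pthlh at 0.56 (SE 0.12), and 4 were lower. Over the 8 populations the lowest p values of the list were those of Pth1r, Scube1, Gpc6, Prkaca, Cdon, Scube3, Hhat, Scube2, Dhh and Btrc.

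**Figure D2:**
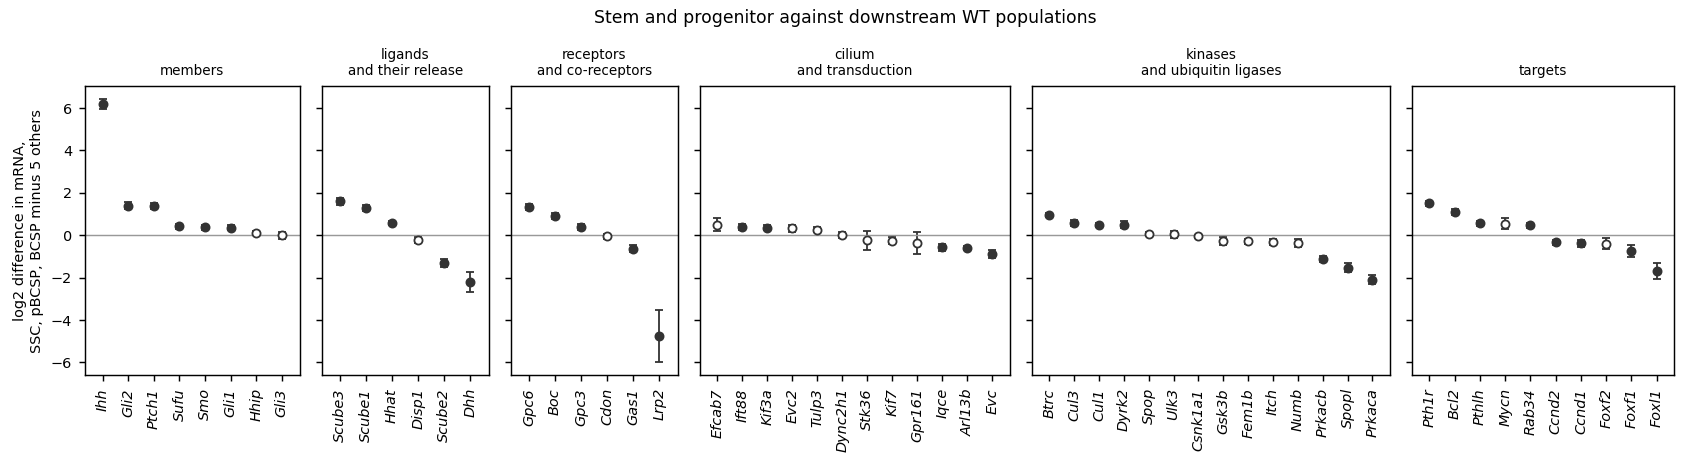
Log2 difference in mRNA between SSC, pBCSP and BCSP and the 5 downstream populations (y axis, bars are standard errors) for the 8 genes (first panel) and tested genes of the pathway list by role; filled points have an adjusted p under 0.05 in edgeR. Ihh stands at 6.20, Gli2 and Ptch1 near 1.4, and each of the other panels holds points on both sides of 0.

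Over the 16 WT input libraries, the genes whose log2 CPM followed each member most closely were taken among 10110 candidates with a mean of at least 5 CPM. They were (with Pearson's r in brackets) Dhx58os (0.977), Nqo1 (0.976), Unc5c (0.974) for Ihh and Vnn1 (0.935), Prkg2 (0.935), Gpsm1 (0.934) for Ptch1. They were Egr1 (0.971), A2m (0.971), Dffb (0.970) for Gli2 and Erg (0.967), Itih2 (0.961), Rapgef4 (0.955) for Hhip. For Smo they were Prkab1 (0.900) and Apbb2 (0.897), and for Sufu Flcn (0.841), Ctsz (0.818), Prickle1 (0.816). For Gli1 they were Patz1 (0.871), Phf21a (0.862), Lpcat2 (0.856) and for Gli3 Zbtb4 (0.825), Zbtb10 (0.821), Med13l (0.813). Among the members r was 0.88 between Ihh and Ptch1, 0.85 between Ihh and Gli2 and 0.80 between Ptch1 and Gli2, and 0.38 between Ihh and Gli1. These coefficients are descriptions, since the 16 libraries are 8 populations in pairs and 6 of them share the stem and progenitor state.

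Whether the mRNAs were enriched by the m6A antibody was asked for each WT population with the study's threshold, a log2 ratio of IP to input above 1 at an unadjusted p under 0.05. Ptch1 was enriched in 6 of 8 populations and Gli3 in SSC and pBCSP, and the other 6 genes were enriched in 0. Ihh and Sufu were each depleted by more than 1 on the log2 scale in 4 populations and Smo in PCP. In all, 63 pairs of gene and population could be tested, with 8 calls over input and 9 of the same size below it. Over all genes and the 8 populations, 11.6% of such pairs were called over input and 14.5% below it. The ratio is scaled so that most mRNAs are near 0, so it ranks a gene against the other mRNAs of its library. Ratios per replicate rest on scaling factors over all 44 libraries and fitted ratios on factors within a population, which moves a gene's 2 kinds of ratio apart by a constant in each library.

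**Figure D3:**
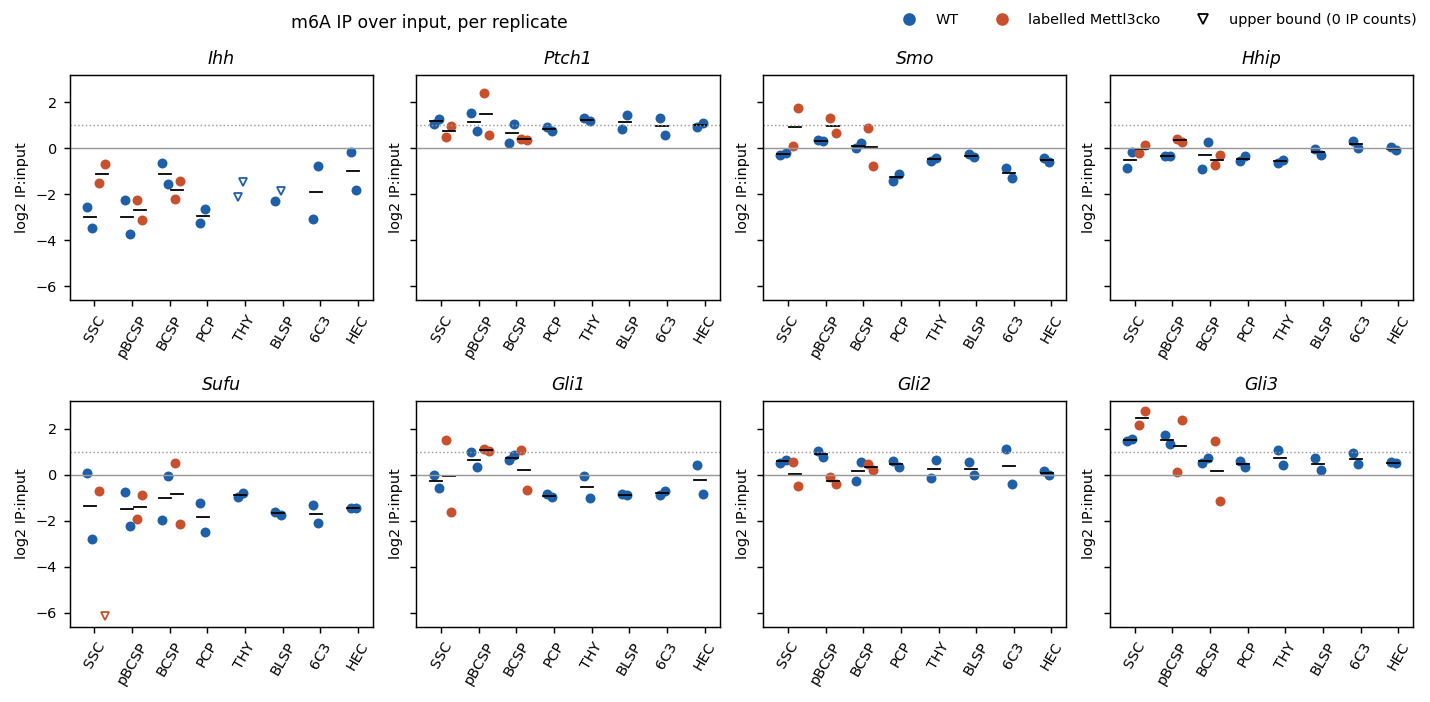
Log2 ratio of IP to input (y axis) for each replicate of the 8 WT populations and of the 3 populations labelled Mettl3cko, with lines at the mean of 2 replicates, a solid line at 0 and a dotted line at the threshold of 1; open triangles are upper bounds where the IP library had 0 counts. Ptch1 and Gli3 lie above 0 in every WT replicate, and Ihh lies below 0 wherever its IP library had counts.

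Ptch1 was above input in all 16 WT replicates. Its log2 ratios were 0.26 and 1.07 in BCSP, 1.08 and 1.27 in SSC and 1.53 and 0.74 in pBCSP, and 0.58 to 1.44 in the 10 downstream replicates. The fitted ratio was 1.22 (SE 0.32) in SSC (unadjusted p = 0.0107, adjusted p = 0.073, edgeR). In THY, where it was highest, it was 1.35 (SE 0.27, unadjusted p = 0.00141, adjusted p = 0.0112). In BCSP and PCP it was 0.57 (SE 0.30) and 0.91 (SE 0.29), under the threshold. The call was lost, with ratios of 0.75 to 0.99, without replicate 2 of SSC IP or 1 of SSC input, 1 of pBCSP IP, 2 of BLSP IP, 1 of 6C3 IP or input, or 1 of HEC IP or 2 of HEC input. The call in THY was lost in 0 of the 4 fits that leave out a library.

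Gli3 also lay above input in all 16 WT replicates, with 1.48 and 1.53 in SSC, 1.74 and 1.32 in pBCSP, 0.51 and 0.71 in BCSP and 0.22 to 1.05 downstream. Its fitted ratios were 1.53 (SE 0.41) in SSC (unadjusted p = 0.0115, adjusted p = 0.0753, edgeR) and 1.53 (SE 0.22) in pBCSP (adjusted p = 0.0126). In the other 6 populations they were 0.54 to 0.80. Gli2 was positive in each fit as well, from 0.16 in HEC to 0.89 in pBCSP, without reaching 1, and 11 of its 16 replicate ratios were above 0. Gli1 was positive in pBCSP and BCSP, at 0.66 (SE 0.26) and 0.69 (SE 0.31), and negative in the other 6, down to -0.85 (SE 0.29) in PCP.

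Ihh mRNA was depleted from the IP. Where Ihh was well expressed its log2 ratios were -0.65 and -1.55 in BCSP, -2.53 and -3.44 in SSC and -2.25 and -3.70 in pBCSP. They rest on 118 to 2978 counts in the IP libraries. The fitted ratios were -2.97 (SE 0.36) in SSC (adjusted p = 0.0286, edgeR), -2.87 (SE 0.46) in pBCSP (adjusted p = 0.0152) and -1.14 (SE 0.28) in BCSP (unadjusted p = 0.00566, adjusted p = 0.0735). The depletion was thus smaller in BCSP, the population with most Ihh, and there it was under 1 without replicate 2 of either the IP or the input. In the 5 downstream populations the IP libraries held 0 to 25 counts of Ihh, so a ratio there rests on few reads, and in THY the gene was not tested.

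Sufu was below input in 15 of 16 WT replicates, with fitted ratios of -1.63 (SE 0.54) in PCP, -1.61 (SE 0.29) in BLSP, -1.58 (SE 0.40) in 6C3 and -1.35 (SE 0.33) in HEC. The last 3 had an adjusted p of 0.00904, 0.0251 and 0.0158 (edgeR). Its SSC replicates were 0.08 and -2.80, the widest gap of its 8 WT pairs. Smo was at -1.41 and -1.11 in PCP, a fitted ratio of -1.19 (SE 0.27, adjusted p = 0.0392). It was at -0.998 (SE 0.27) in 6C3 (adjusted p = 0.0297), just under the size that was required. Hhip stayed close to input, from -0.45 to 0.23 in the 8 fits. Ptch1 and Gli3, the members above input in every replicate, had the most GGACT copies, and Hhip, near 0, the fewest. Ihh and Sufu held more copies per kilobase (2.03 and 1.99) than Gli3 (1.59) and lay below input.

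In the pathway list, 1 (BCSP and PCP) to 8 (SSC) of 46 to 50 genes tested in a population were over input and 3 to 10 were below. Of all genes, 10.4% were over input in SSC, 6.67% in BCSP and 10.6% in PCP. The shares below input ran from 11.7% in BCSP to 17.0% in 6C3. The genes called in most populations are given here. Cul3, a scaffold of ubiquitin ligases that act on Gli proteins, was over input in 7 of 8 populations, Dyrk2 in 6 and Gsk3b in 5, both kinases of Gli proteins. Spop, an adaptor of Cul3, was below input in 8 of 8, Btrc and Scube1 in 7 and Ulk3 in 6. By the study's threshold Fem1b was over input in SSC alone of the 8 populations, with a fitted ratio of 1.18 (SE 0.27), and its fitted ratios ran down to -0.73. Its replicate ratios in pBCSP, 0.95 and 0.91, were close to the threshold and stood beside 0.89 and 1.46 in SSC. Pthlh and Pth1r were called in 0 of 8 populations, with fitted ratios of -0.53 to 0.17 and -0.65 to 0.89.

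Whether the ratio itself differs among populations was tested by the interaction of assay and population over the 32 WT libraries. By edgeR 0 of the 8 genes passed at an adjusted p under 0.05, against 0.485% of 25365 genes, while Gli1 and Smo had an unadjusted p of 0.00276 and 0.0086. A block of IP and input by replicate number assumes that equal numbers mark the same divided batch of cells. With this block Ihh and Smo did pass (adjusted p = 0.00381 and 0.0161, edgeR). With DESeq2 Gli1 did (adjusted p = 0.0033). A contrast of SSC, pBCSP and BCSP with the 5 downstream populations was added after the values had been seen. It called Gli1 and Smo as higher in stem and progenitor cells, against 3.06% of all genes, and 0 as lower, against 1.77%. Mitochondrial genes held 1.56 to 2.92% of counts in the stem and progenitor IP libraries and 4.53 to 9.10% in the downstream ones. The genes detected were 16250 to 18714 in the former and 18996 to 27025 in the latter. The part of this in the ratios was not tested. The Gli1 ratios were 0.64 and 0.84 in BCSP, 0.00 and -0.56 in SSC and 0.97 and 0.33 in pBCSP and -1.004 to 0.42 downstream, where 9 of 10 replicates were below 0 and which SSC overlapped. The difference was 1.06 (SE 0.24, adjusted p = 0.00853, edgeR). The Smo ratios were -0.29 to 0.35 in the 6 stem and progenitor replicates and -1.41 to -0.25 in the 10 downstream ones. The difference was 0.84 (SE 0.22, adjusted p = 0.0217). Of the 32 fits that leave out a library, 5 lost the call of Gli1 and 18 that of Smo, and with no filter on low counts both were lost. With the block Gli3 was also called, at 0.67 (adjusted p = 0.0428). For Ptch1 the difference was -0.01 (SE 0.21). In the pathway list 7 of 50 genes had a higher ratio in stem and progenitor cells, led by Fem1b at 1.15 (SE 0.21, adjusted p = 0.00155). The others were Prkacb, Disp1, Pth1r, Rab34, Spopl and Scube3, at 0.64 to 1.11, and Stk36 had a lower ratio.

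The libraries labelled Mettl3cko were compared with WT in SSC, pBCSP and BCSP. This is a comparison of labels, since the counts do not check the loss of the m6A methyltransferase. Ihh was higher in the libraries labelled Mettl3cko, Gli2 was lower, Gli1 was lower in SSC, and Ptch1, Smo, Sufu, Hhip and Gli3 did not pass in any population or over the 3 together. With 1 genotype effect fitted over the 3 populations, Ihh rose and Gli2 fell at an adjusted p under 0.05 in edgeR, against 3.83% of 18655 genes that rose and 2.64% that fell. Within a population and by the study's threshold, a log2 change beyond 0.5 at an unadjusted p under 0.05, the members called were Ihh (higher), Gli1 and Gli2 (lower) in SSC, Ihh (higher) in pBCSP and Gli2 (lower) in BCSP. The same threshold called 6.96% of genes as higher and 7.07% as lower in SSC, 3.88% and 4.48% in pBCSP. In BCSP it called 7.22% and 5.72%. In these 3 fits 0 of all genes reached an adjusted p under 0.05 in edgeR, while 2363, 1341 and 2123 had an unadjusted p under 0.05. Ihh in SSC had an adjusted p of 0.145.

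**Figure D4:**
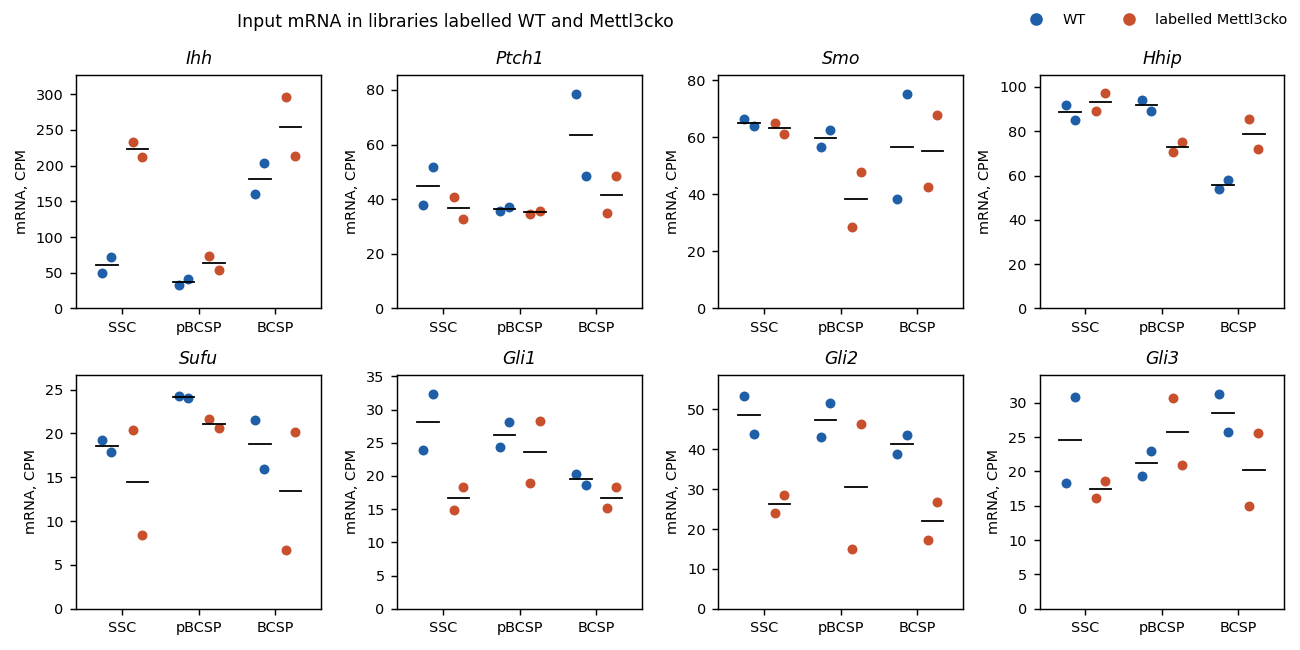
Input mRNA in CPM (y axes from 0) of the 8 genes in SSC, pBCSP and BCSP, with a point for each of the 2 replicates labelled WT or Mettl3cko and a line at their mean. Ihh is above WT in both replicates of all 3 populations, with the widest gap in SSC, and Gli2 is below WT in both replicates of SSC and BCSP.

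Ihh was at 233 and 212 CPM in SSC labelled Mettl3cko against 49.8 and 71.6 in WT. It was at 73.3 and 53.2 against 33.4 and 40.9 in pBCSP and at 296 and 213 against 159.9 and 203 in BCSP. Both libraries labelled Mettl3cko stood above both WT libraries in each of the 3 populations, as in 4.15% of genes. The SSC libraries labelled Mettl3cko also stood above both WT BCSP libraries. The log2 change was 1.87 (SE 0.24) in SSC (unadjusted p = 7.73e-05, edgeR), 0.79 (SE 0.28) in pBCSP (unadjusted p = 0.0294) and 0.48 (SE 0.25) in BCSP (unadjusted p = 0.0954). It was 1.05 (SE 0.22) over the 3 (adjusted p = 0.0125). The test that the change differs among the 3 populations gave an unadjusted p of 0.00605 and an adjusted p of 0.941 for Ihh. In that test 0 of 18655 genes, 0% of them, had an adjusted p under 0.05 in edgeR and 839 an unadjusted one. DESeq2 gave the SSC change of Ihh as 1.89 with an adjusted p of 3.27e-11, and the fits without 1 of the 4 SSC libraries ranged from 1.64 to 2.17.

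By the threshold that called Ihh higher in SSC, 0 of the 6 hypertrophic markers were higher there and Mmp13 and Ibsp were lower. Col10a1 was at 116 and 201 CPM in SSC labelled Mettl3cko and 147 and 169 in WT, a change of 0.00 (SE 0.27), and Panx3 at 98.6 and 266 and 139 and 225. The 6 markers summed to 4319.9 and 4507 CPM against 3806 and 5804 in WT. Their changes ran from -1.73 (SE 0.50, unadjusted p = 0.00978, edgeR) for Mmp13 to 0.12 (SE 0.21) for Spp1, with Ibsp at -0.79 (SE 0.30, unadjusted p = 0.0341). As for all genes of this fit, their adjusted p was above 0.05. Cartilage markers summed to 69801 and 121404 CPM against 97010.5 and 115279 in SSC, and in pBCSP to 61614 and 70051 against 97636 and 101641. Osteoblast markers summed to 10911 and 17016 in BCSP, against 6690 and 7221, and to 3189 and 8362 against 4323 and 5843 in SSC. Their members did not move together. In BCSP Col1a1 and Dmp1 were at 1.02 (SE 0.26) and 1.34 (SE 0.41), and Bglap and Bglap2 at -2.04 (SE 0.83) and -1.87 (SE 0.83). Runx2, Sp7 and Ifitm5 were at -0.27 to -0.02 there. In SSC Bglap was at -2.53 (SE 0.50). The 7 blood markers summed to 14.5 to 36.4 CPM in the 6 input libraries labelled Mettl3cko and 6.36 to 16.5 in WT. Among them the globin genes Hba-a1 and Hbb-bs rose over the 3 populations by 3.58 (SE 0.62, adjusted p = 0.00459) and 3.57 (SE 0.80, adjusted p = 0.0167, edgeR), as Ihh did. The blood markers Lyz2 and Cd79a went the other way, at -0.57 (SE 0.73) and -0.34 (SE 0.37). S100a8 and S100a9 were at 0.62 (SE 1.00) and 0.48 (SE 0.89). The part of these markers in the changes of Ihh and Gli2 was not tested. Pth1r was at 94.2 and 54.3 CPM against 87.3 and 99.3 in SSC, a change of -0.34 (SE 0.28, adjusted p = 0.639). Pthlh, at 23.3 and 31.5 against 48.1 and 33.9, had a change over the 3 populations of -0.50 (SE 0.14, adjusted p = 0.052, edgeR).

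**Figure D5:**
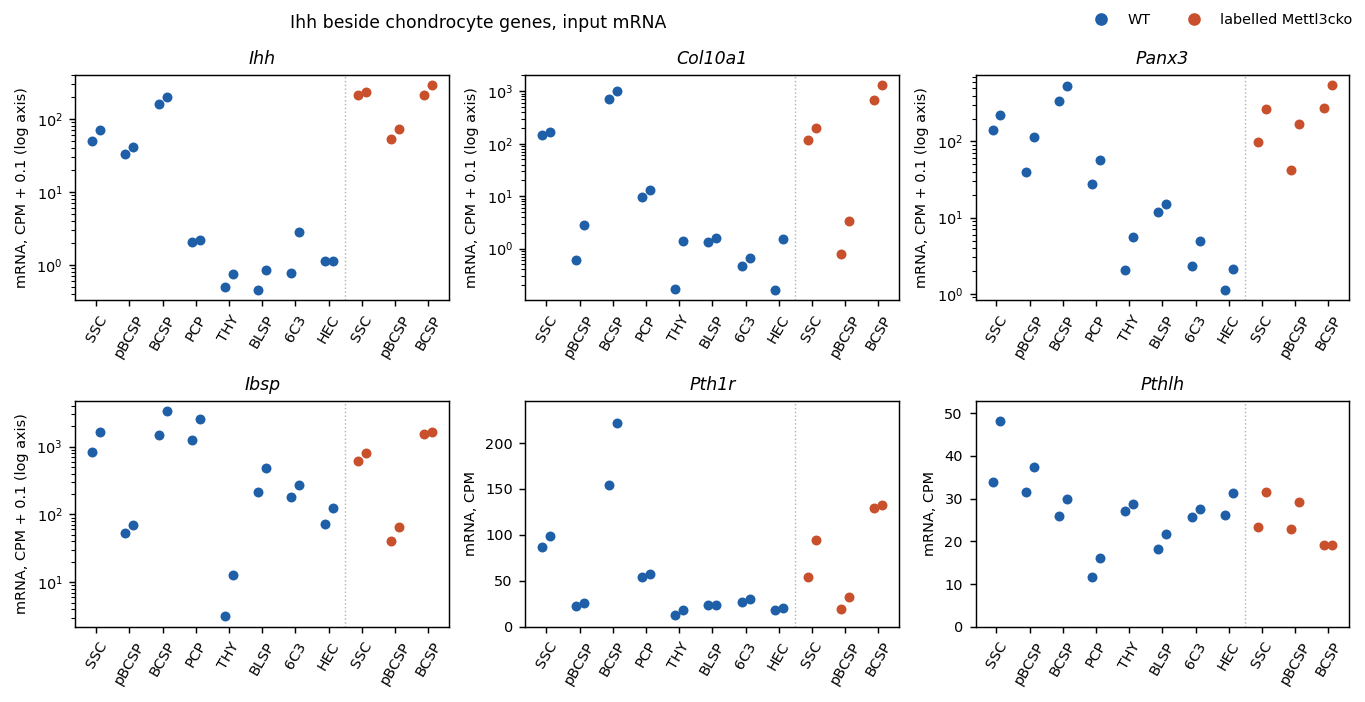
Input mRNA of Ihh, of the hypertrophic markers Col10a1, Panx3 and Ibsp (CPM + 0.1, logarithmic axes) and of Pth1r and Pthlh (CPM from 0) in the 8 WT populations and, right of the dotted line, the 3 populations labelled Mettl3cko, with a point for each replicate. In SSC, Ihh is higher with the Mettl3cko label while Col10a1 lies at 116 and 201 CPM against 147 and 169.

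Gli2 was at 24.1 and 28.5 CPM in SSC labelled Mettl3cko against 53.4 and 43.9 in WT and at 17.1 and 26.9 against 38.8 and 43.7 in BCSP. In pBCSP the replicates labelled Mettl3cko were 14.9 and 46.4 against 43.2 and 51.7, and these overlapped. The log2 change was -0.89 (SE 0.22) in SSC (unadjusted p = 0.00478, edgeR, and 0.0588 in a fit over the 12 input libraries), -0.61 (SE 0.52) in pBCSP (unadjusted p = 0.284) and -0.92 (SE 0.29) in BCSP (unadjusted p = 0.0155). Over the 3 populations it was -0.80 (SE 0.22), at the edge of the threshold (adjusted p = 0.0479), and 10 of the 12 fits that leave out a library no longer passed. The fall was -0.64 in BCSP without replicate 1 of the knockout label (unadjusted p = 0.111).

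Gli1 was at 14.9 and 18.3 CPM in SSC labelled Mettl3cko against 23.952 and 32.4 in WT, a change of -0.77 (SE 0.28, unadjusted p = 0.0266, adjusted p = 0.269, edgeR). It did not pass without replicate 2 of WT (-0.52, unadjusted p = 0.194) or without replicate 1 of the knockout label. In pBCSP it was at 19.0 and 28.3 against 24.3 and 28.2 and in BCSP at 15.2 and 18.3 against 20.3 and 18.7. The change over the 3 populations was -0.37 (SE 0.17, adjusted p = 0.229). Ptch1, like Gli1 a transcriptional target, was at -0.31 (SE 0.16, adjusted p = 0.305) and Hhip, another, at 0.09 (SE 0.13, adjusted p = 0.776). In pBCSP Hhip was at 70.7 and 75.2 CPM against 94.2 and 89.1, and in BCSP at 85.6 and 72.1 against 53.9 and 57.9. Hhip thus stood below WT in the former and above it in the latter. The test that its change differs among populations gave an unadjusted p of 0.0339 and an adjusted p of 0.941 (edgeR). Over the 3 populations Smo was at -0.23 (SE 0.20), Sufu at -0.34 (SE 0.26) and Gli3 at -0.23 (SE 0.21), with adjusted p from 0.499 to 0.598 (edgeR). Sufu varied widely between replicates of a label, at 20.4 and 8.41 CPM in SSC and 6.71 and 20.2 in BCSP labelled Mettl3cko.

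Of 48 genes of the pathway list tested over the 3 populations, 1 rose and 2 fell at an adjusted p under 0.05 in edgeR. The shares of all genes were 3.83% and 2.64%. The median log2 change of the list was -0.20 against -0.04 over all genes. Fem1b rose by 0.59 (SE 0.16, adjusted p = 0.0414), with 64.4 and 43.9 CPM in SSC against 38.4 and 26.7 in WT. Cdon, a co-receptor that binds ligand, was at 15.5 and 15.2 CPM against 30.9 and 32.6 in SSC and changed by -0.82 (SE 0.15, adjusted p = 0.00581). Rab34, a GTPase of cilium assembly, changed by -0.66 (SE 0.11, adjusted p = 0.0044). By the study's threshold 5 genes of the list were higher and 8 lower in SSC, against 6.96% and 7.07% of all genes. In pBCSP these numbers were 0 and 1, against 3.88% and 4.48%, and in BCSP 4 were lower, against 5.72%. In SSC the lowest p values among them were those of Rab34 at -0.89 (SE 0.18) and of the co-receptors Gas1 at -1.02 (SE 0.21) and Cdon at -1.05 (SE 0.23). Kif3a, Ulk3 and Scube3 were also lower there and Foxl1, Gsk3b, Ccnd1 and Arl13b higher. Cdon was the gene called in pBCSP, and Cul3, Rab34, Bcl2 and Scube3 were lower in BCSP.

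The ratio of IP to input was compared between labels last. By edgeR 0 of the 8 genes changed at an adjusted p under 0.05 in SSC, pBCSP, BCSP or over the 3 together. In the single populations 0% of all genes (17224, 17490 and 17605 tested) passed either. At an unadjusted p under 0.05 there were 2505, 2087 and 1814 such genes, and over the 3 populations 2.33% of 20360 genes passed. Ihh in SSC came nearest, with log2 ratios of -1.51 and -0.70 with the Mettl3cko label and -2.53 and -3.44 in WT. The difference was 1.98 (SE 0.52, unadjusted p = 0.00595, adjusted p = 0.188). It passed in DESeq2 (adjusted p = 0.0155) and in edgeR without IP replicate 1 or 2 of the knockout label (adjusted p = 0.00489 and 0.0444), and with the replicate block its adjusted p was 0.71. Without IP replicate 1 of the knockout label Smo passed too, at 2.01 (adjusted p = 0.00348, edgeR), as did Sufu, which has 0 counts in the remaining IP library. In pBCSP and BCSP the difference of Ihh was 0.23 (SE 0.84) and -0.70 (SE 0.41).

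The replicates labelled Mettl3cko lay far apart for several of the other genes. Gli1 was at 1.52 and -1.61 in SSC labelled Mettl3cko, Gli3 at 1.45 and -1.13 in BCSP, Ptch1 at 2.42 and 0.59 in pBCSP and Smo at 0.87 and -0.77 in BCSP. Sufu had 0 counts in IP replicate 2 of SSC labelled Mettl3cko, a log2 ratio of at most -6.16 if 3 counts are taken as the most that 0 allows (counting error only). Ptch1 stayed above input in all 6 replicates labelled Mettl3cko and Ihh below it in all 6. Over the 3 populations the differences of the 8 genes ran from -0.55 (SE 0.44) for Gli2 to 0.63 (SE 0.41) for Smo, with a median of 0.25. The median over all genes was -0.38, and the IP libraries of this label detected fewer genes, as given above. The part of that in the ratios was not tested. Of the pathway list 0 of 49 genes passed in edgeR and 11 had an unadjusted p under 0.05, as had 17.2% of all genes. The difference was 0.82 (SE 0.33) for Pth1r, 0.40 (SE 0.33) for Fem1b and -0.73 (SE 0.93) for Pthlh.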

How the data were processed

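Cells of mouse long bone were sorted by the study and the same batch of cells was divided between IP and input. By the study's methods and the labels, the authors trimmed reads with fastp 0.20.1, aligned them to GRCm38 with HISAT2 2.2.1 and counted them per gene with featureCounts 2.0.1, and the values deposited are raw counts per gene, not normalized. Annotation and strand setting are not given in the sources used here. The deposited tables of the authors' own comparisons hold log2 fold changes and p-values and were not used.

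Of 46959 entries 128 were left out, since 2 names occur more than once (at most 0.390% of a library's counts). Counts were tested with edgeR 4.0.16 in R 4.3.3 (TMM scaling, filterByExpr, quasi-likelihood F test, Benjamini-Hochberg adjustment over all genes of a fit). SE was taken as the size of the log2 change over the root of F. Levels are CPM with TMM factors over the 44 libraries. Tests of the ratio use the interaction of assay with population or label. The scripts were tested on simulated data. The alternatives were DESeq2 1.42.0, its size factors, library size alone, no filter, joint fits, a replicate block and each library left out. The labels do not say that IP and input of the same number come from the same divided batch of cells. Their deviations from the group mean correlated at 0.018 to 0.237. Input deviations correlated at -0.184 to 0.117 between populations and at -0.003 to 0.006 between labels, so no pairing by number was taken there. The main tests used no replicate block.

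The 8 genes, the pathway list of 51 genes and the marker lists were chosen with earlier results of these data known. All 8 genes are named, and of the list up to 10 past the threshold with the lowest p and always Pthlh, Pth1r and Fem1b. For IP against input the list genes called in most populations are named instead, chosen after their values were seen. Genes whose pattern is most like a member's are those of the 3 with the highest Pearson's r that are reported here. A few values of single genes are not reported here.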

Additional observations from a re-analysis of the deposited data

Results flagged for a closer look

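The ratio of IP to input differed between SSC, pBCSP and BCSP and the 5 downstream populations for Gli1, by 1.06 on the log2 scale (SE 0.24), and for Smo, by 0.84 (SE 0.22), both by the test of the difference itself in edgeR. The contrast was chosen after the values had been seen. The IP libraries of these sets of populations also differed, without overlap, in mitochondrial share and in genes detected, and the part of this was not tested. In Gli1 the SSC replicates lay within the downstream range, and the call was lost without replicate 1 or 2 of BCSP input and without replicate 2 of THY, BLSP or HEC input. In Smo the 6 and the 10 replicates overlapped between -0.29 and -0.25, and the call was lost in 18 of the 32 fits that leave out a library, against 5 of 32 for Gli1. With no filter on low counts both calls were lost (adjusted p = 0.0659 for Gli1 and 0.0716 for Smo, edgeR), and with DESeq2 size factors that of Smo was (adjusted p = 0.0929, edgeR).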

How the results depend on the processing

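With 2 libraries a group, the fits that leave out a library rest on a lone sample assumed to vary like the others, and low counts limit Ihh downstream and Sufu in the IP. The 37 results of single genes that passed a test were taken again under the alternatives, which gave 559 values. None of the log2 values among them changed sign, and the omnibus results are F values, which have no sign. Of the 559 values 482 still passed and 77 did not, 65 of those without a library. Counts below are genes of the 8. Between labels over the 3 populations 2 changed in mRNA, and 1 with DESeq2 size factors or library size alone (Gli2 lost) and 1 to 2 without a library. In BCSP it was 1, and 2 with no filter or in a fit over the 12 input libraries, 0 by adjusted p, and 0 (without replicate 1 of the knockout label) to 5 (without its replicate 2). In pBCSP it was 1, and 2 with no filter, 0 by adjusted p, and 0 (without replicate 1 of the knockout label or either WT replicate) to 3 (without its replicate 2). In SSC it was 3, 2 in the fit over the 12 input libraries (Gli2 lost), 0 by adjusted p and 2 to 3 without a library. The ratio in SSC changed for 0, for 1 with DESeq2 (Ihh) and for 0 to 3 without a library (3 without IP replicate 1 of the knockout label). The ratio differed among the 8 populations for 0, for 1 with DESeq2 (Gli1), 1 with no filter (Ihh), 2 with the replicate block (Ihh and Smo) and 0 to 1 without a library. The ratio of stem and progenitor against downstream differed for 2, for 1 with DESeq2 size factors, 0 with no filter, 3 with the replicate block and 0 to 2 without a library. The cause of these changes was not tested. Numbers may pair IP with input only, and the replicate block changed no other count by over 1.5 times. In mRNA among populations, where no pairing by number was taken, the block left the counts at 5 over the 8 populations and 6 in the contrast. DESeq2 size factors moved the median log2 contrast of the ratio over all genes from -0.08 to -0.24, and library size alone moved that of mRNA from -0.11 to -0.21 and that of the ratio between labels in SSC from -0.16 to -0.34, so the values of single genes are relative to these medians.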
